A study of Rattus norvegicus with 6 samples.

Results

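The genes described here carry cholesterol out of cells, release or store it inside them, and sense it through the liver X receptors (LXRs). They are Apoe, Abca1, Abcg1, Nr1h2, Nr1h3, Npc1, Npc2, Soat1 and Scarb1. Every probe set that the array annotation assigns to a single one of these 9 genes was taken, by current symbol or older alias. This gave 17 of the 31042 probe sets other than controls and covered 8 of the 9 genes. Npc1, which exports cholesterol from lysosomes together with Npc2, had no probe set listed and was not analysed here.

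The arrays measured total RNA of 3Y1, an embryonic fibroblast line of the rat, with 2 arrays per group that the labels call biological replicates. The MUC1-CD in vivo group was 3Y1 cells stably transfected to express the cytoplasmic part of MUC1, a mucin of the cell membrane, and grown as tumors after injection under the hindlimb skin of female athymic mice. The MUC1-CD in vitro group was the same transfected cells in culture, and the Vector in vitro group was 3Y1 cells stably transfected with an empty vector, also in culture. All cells were cultured in DMEM with heat-inactivated fetal bovine serum, and no age of the mice is stated in the labels. Athymic mice lack mature T cells and keep other host cells such as macrophages and vessels, so a tumor holds mouse tissue beside rat cells, and how far rat probe sets read mouse RNA was not tested. The labels name no clone and no promoter for either transfectant, and RNA of tumors passed through columns as well as TRIzol. The design text asks which genes accompany transformation by MUC1-CD and the growth of its tumors.

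As background, cells shed surplus cholesterol by handing it to lipoprotein particles. ABCA1 loads lipid-poor apolipoproteins such as apoE, and ABCG1 passes sterol on to mature HDL. Oxidized sterols bind the LXRs, which pair with retinoid X receptors and switch on Abca1, Abcg1 and, in macrophages, Apoe. NPC1 and NPC2 free cholesterol from lysosomes, SOAT1 turns it into storable esters, and SR-BI, the product of Scarb1, exchanges cholesterol with HDL. Macrophages are the best known site of this pathway outside liver and intestine, and fibroblasts use it too.

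The Abca1 promoter is shown because its LXR response element is a textbook example in human and mouse and because 3 of the 4 Abca1 probe sets differed in culture. The LXR element is a direct repeat with a 4-base spacer, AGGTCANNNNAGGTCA. It was searched on both strands of RefSeq windows running from 250 bases before to 50 bases after each annotated start on GRCr8. The 250 bases upstream of the Abca1 start follow, 5′ to 3′ along the gene, from chr5:72596474-72596723 on the minus strand.
Abca1 promoter: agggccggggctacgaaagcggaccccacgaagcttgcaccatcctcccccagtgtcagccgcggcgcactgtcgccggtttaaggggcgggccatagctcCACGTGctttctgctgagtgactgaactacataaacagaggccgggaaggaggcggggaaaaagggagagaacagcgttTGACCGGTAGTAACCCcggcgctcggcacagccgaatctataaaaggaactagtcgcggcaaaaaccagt
The first capitals are an E-box, CACGTG, 149 to 144 bases before the start. The second capitals are the closest stretch to the LXR repeat, 70 to 55 bases before the start, which reads as a repeat on the opposite strand.
Read in that direction, with only matched letters in capitals, this stretch is compared with the closest ones in 2 other genes of the group.
Abca1: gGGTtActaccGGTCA
Npc2: gGGTggagccAGGTCA
Apoe: gGGTCAcaaggcaTCA
The Abca1 stretch lies at chr5:72596528-72596543 on the plus strand and matched 9 of the 12 fixed letters. The Npc2 stretch lies at chr6:110149220-110149235 on the plus strand, just past the gene's start, and also matched 9. The Apoe stretch, from 1 of 3 annotated Apoe starts, lies at chr1:88484821-88484836 on the minus strand and matched 8. Of 33469 RefSeq promoter windows from 27457 genes, 21.9% held a stretch with 9 or more matched letters and 77.6% one with 8 or more, so such matches are common. The E-box was in 6.42% of windows and, among the members' promoters, only in that of Abca1. Abcg1 and Scarb1 were not in the promoter table.

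Values are MAS5 signals, a linear measure of probe set brightness. As deposited, they had the same trimmed mean of 500 on every array, which was read from the values because the labels give no target. This is called the authors' scaling below. Each change is a difference of log2(signal + 16) and carries its standard error (SE) as limma estimates it. This scale understates how much dim probe sets changed. A change was called when limma's p, 2-sided and adjusted by the Benjamini-Hochberg method over all 18625 probe sets that passed a filter on low signals, was under 0.05. Of the 17 probe sets, 13 passed the filter, and they represent 7 genes, since Nr1h3 did not pass. The number of arrays limits the precision of every value. The p-values rest on the spread between replicate arrays pooled over all groups. The spread of the Vector arrays therefore also enters the comparison of MUC1-CD in vivo with MUC1-CD in vitro. In bulk RNA, fewer cells of a type and less RNA per cell cannot be told apart.

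Fibroblast markers were bright on all arrays. Vim, which encodes the filament protein vimentin, read at least 20239 on each one. The rat Muc1 probe set gave 61.3 and 51.7 in MUC1-CD in vivo, 43.5 and 26.7 in MUC1-CD in vitro, and 92.6 and 83.2 in Vector in vitro, and whether it reads the transfected domain was not tested. The Vector arrays stood apart. The 3′ to 5′ signal ratio of the Gapdh control probe sets was 1.11 to 1.18 on the 4 MUC1-CD arrays, against 11.5 and 17.8 on Vector in vitro replicates 1 and 2. That of actin was 2.96 to 3.37 on the MUC1-CD arrays, against 4.15 on Vector in vitro replicate 1 and 41.8 on replicate 2. The 5S rRNA control read 227.4 to 291.5 on the MUC1-CD arrays, against 1800 and 1470 on the Vector arrays. The replicate difference had an SD of 0.28 log2 in MUC1-CD in vivo, 0.26 in MUC1-CD in vitro and 0.62 in Vector in vitro. The part of these differences in the comparisons with Vector was not tested. Dividing each array by its median in place of the authors' scaling moved the median change of all tested probe sets from 0.07 to -0.24 in MUC1-CD in vitro relative to Vector in vitro, from 0.05 to -0.21 in MUC1-CD in vivo against MUC1-CD in vitro, and from 0.12 to -0.45 in MUC1-CD in vivo against Vector in vitro. The share of calls that were higher was 54.7%, 53.9% and 56.5% in these comparisons under the authors' scaling and 33.7%, 22.9% and 25.7% after division by the median.

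Between MUC1-CD in vitro and Vector in vitro, Abcg1, Nr1h2 and Abca1 were higher and Npc2 was lower, while Apoe, Soat1 and Scarb1 did not pass the test. Each gene is represented here by its tested probe set with the highest mean signal. So 4 of 7 genes were called, where 46.1% of all 10037 genes were called, 21.2% higher and 24.9% lower. Between MUC1-CD in vivo and MUC1-CD in vitro, Apoe was higher, and Abca1 and Soat1 were lower. These are 3 of 7 genes, where 18.8% of all genes were called, 9.82% higher and 8.97% lower. Between MUC1-CD in vivo and Vector in vitro, Apoe, Abcg1 and Nr1h2 were higher and Soat1 was lower, 4 of 7 genes, where 51.4% of all genes were called, 24.8% higher and 26.6% lower. The median change of the 7 genes was -0.01, -0.003 and -0.16 in these comparisons, and that of all genes was -0.04, 0.03 and -0.02. The comparisons share arrays, so their calls are not independent of each other.

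**Figure D1:**
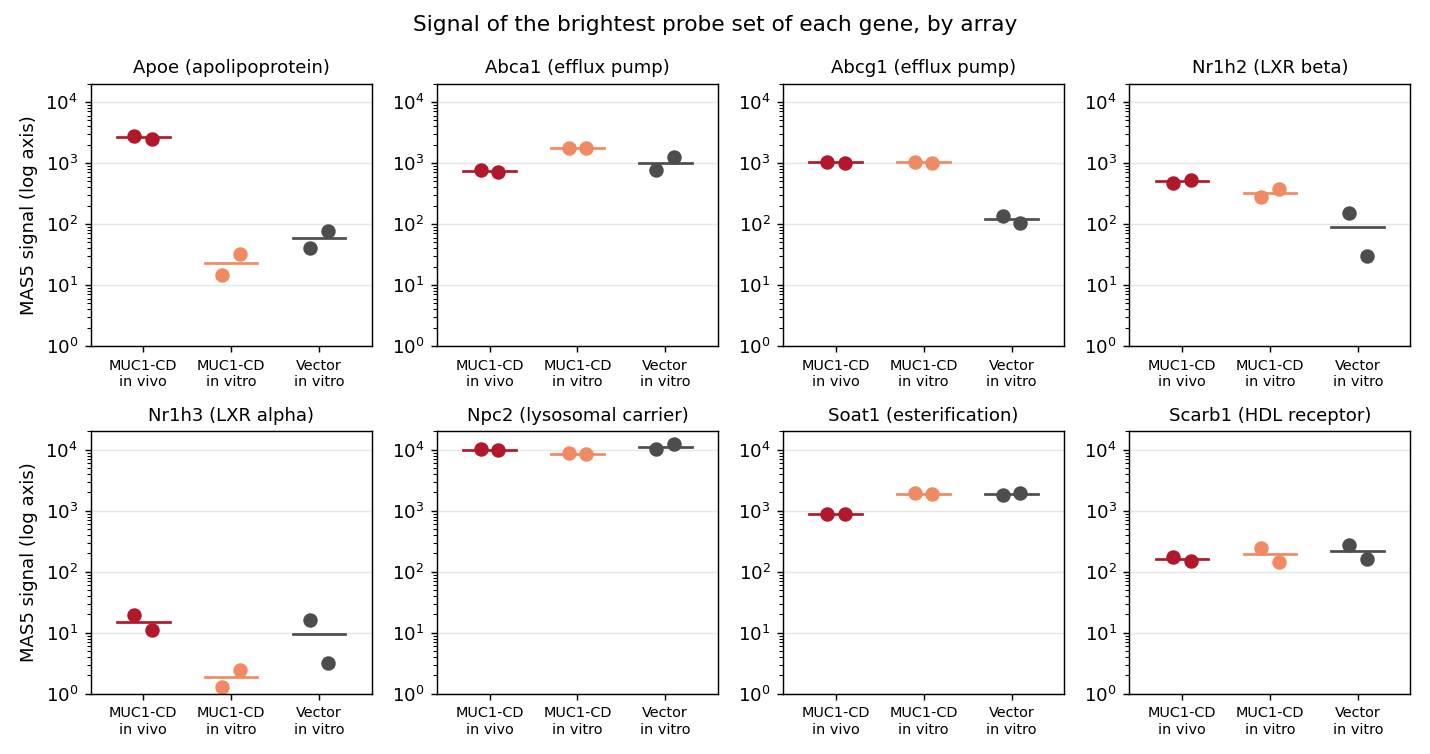
MAS5 signal (log axis) of the probe set with the highest mean signal for each of the 8 genes, by group. Each point is 1 array and each line the mean of 2 arrays; Apoe stands far higher in MUC1-CD in vivo than in both cultures, and Abcg1 is higher in both MUC1-CD groups than in Vector in vitro.

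Apoe, whose product is the lipid carrier of the group, showed the largest change of the 7 genes in both comparisons of tumors. Its probe set 1370862_at read 2788 and 2510.8 in MUC1-CD in vivo, against 14.6 and 32.1 in MUC1-CD in vitro and 41 and 75.6 in Vector in vitro. The tumor arrays lay far above all 4 culture arrays, and the culture arrays were all dim. The means were 2649 ± 196 in MUC1-CD in vivo, 23.4 ± 12.4 in MUC1-CD in vitro and 58.3 ± 24.5 in Vector in vitro (SD, n = 2 each). Apoe was higher in MUC1-CD in vivo than in MUC1-CD in vitro by 6.12 log2 (SE 0.31, limma adjusted p = 0.000171). Against Vector in vitro it was higher by 5.20 (SE 0.31, limma adjusted p = 5.64e-05). It passed the filter on low signals through the tumor arrays alone. Within culture, both MUC1-CD arrays lay below both Vector arrays, but the difference of -0.91 (SE 0.31) missed the threshold at a limma adjusted p of 0.0509. That p ranged from 0.00136 to 0.262 over the alternatives. It passed without Vector in vitro replicate 1 (-1.26, the lowest p of that range), and under both other scalings (-1.17 with division by the median and -1.10 with quantile normalization). The other Apoe probe set, 1371288_at, stayed below the filter, with 36 and 15.9 in MUC1-CD in vivo, 1 and 2.1 in MUC1-CD in vitro, and 16 and 3.1 in Vector in vitro.

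Some markers of other cell types were, like Apoe, higher in MUC1-CD in vivo than in both cultures, and others were not. Of 13 macrophage markers that passed the filter on low signals, 7 passed it through the tumor arrays alone, their mean over the 4 culture arrays being below it, so a high tumor signal was a condition of their test. They were Cd68, Aif1, C1qa, C1qb, C1qc, Itgb2 and Coro1a. Of the other 6, 2 were higher and 1 lower in MUC1-CD in vivo than in MUC1-CD in vitro. Among these 6, Laptm5 read 97.9 and 110 in MUC1-CD in vivo, below its 179.8 and 209.3 in MUC1-CD in vitro. Cd163 overlapped between these groups, with 102 and 121.8 in MUC1-CD in vivo and 115.1 and 144.7 in MUC1-CD in vitro. Aif1, a macrophage actin-binding protein, read 639.3 and 604 in MUC1-CD in vivo, against 0.8 and 0.4 in MUC1-CD in vitro and 13.5 and 2.4 in Vector in vitro. C1qa, a complement chain made by macrophages, read 914.1 and 887.3 in MUC1-CD in vivo, against 29.3 and 50.5 in MUC1-CD in vitro and 31.4 and 40.2 in Vector in vitro. Both markers, like Apoe, separated tumors from cultures without overlap. The summed signal of the 19 macrophage markers with a probe set was 8275 and 8176 in MUC1-CD in vivo, 3568 and 3814 in MUC1-CD in vitro, and 1391 and 1482 in Vector in vitro. No marker was at 0. On both arrays of a group, 0 of the 19 read below 16 in MUC1-CD in vivo, 5 in MUC1-CD in vitro and 7 in Vector in vitro. Cd14, the lipopolysaccharide co-receptor, made up most of the culture sum of MUC1-CD cells, at 2827.6 and 3051.6, and its tumor values were 3248.1 and 3288.6. Adgre1, which encodes the macrophage surface protein F4/80 and was named after its values were seen, was dim throughout, with 15.7 and 16 in MUC1-CD in vivo, 14 and 9.3 in MUC1-CD in vitro, and 1 and 11.7 in Vector in vitro.

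The same tumor arrays carried other tissue markers as well. The summed signal of 9 skeletal muscle markers with a probe set was 8930 and 8369 in MUC1-CD in vivo, against 269.7 and 390.9 in MUC1-CD in vitro. Of the 7 muscle markers tested, 5 passed the filter through the tumor arrays alone, and the other 2 were higher in MUC1-CD in vivo than in MUC1-CD in vitro. Of 8 pericyte and stroma markers tested, 4 passed through the tumor arrays alone, and 1 of the other 4 was higher in that comparison. Of 3 tested endothelial markers, 2 passed in that way and the other was not called. Hbb, a beta chain of hemoglobin, also passed through the tumor arrays alone. It read 3223.5 and 3309.4 in MUC1-CD in vivo, against 12 and 13.9 in MUC1-CD in vitro and 17.3 and 57.3 in Vector in vitro. Of 3 adipocyte markers, Cfd was higher and Pparg lower. S100a9, the single granulocyte marker tested, likewise passed through the tumor arrays alone. Krt10, the single keratinocyte marker tested, was not called between MUC1-CD in vivo and MUC1-CD in vitro. It was lower in MUC1-CD in vivo than in Vector in vitro (-0.70, limma adjusted p = 0.0458). The part of any of these cell types in the Apoe difference was not tested.

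Genes with the profile most like that of Apoe were sought by the root mean square difference of centred log2 values over the 6 arrays, among 10036 other genes. The 4 closest were Rnf130, a ubiquitin ligase, at 0.405, the hemoglobin chain Hbb at 0.430, the gelatinase Mmp2 at 0.475, and the MHC class II invariant chain Cd74 at 0.510. Cd74 read 4210.6 and 4200.8 in MUC1-CD in vivo, against 58.4 and 41.7 in MUC1-CD in vitro and 169.7 and 103.2 in Vector in vitro. Rnf130 and Hbb read below the filter value on every culture array, so a high tumor signal was a condition of their place in the ranking. Mmp2 and Cd74 read below it on both MUC1-CD culture arrays. These arrays share groups and depth of hybridization, so the ranking is a description.

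**Figure D2:**
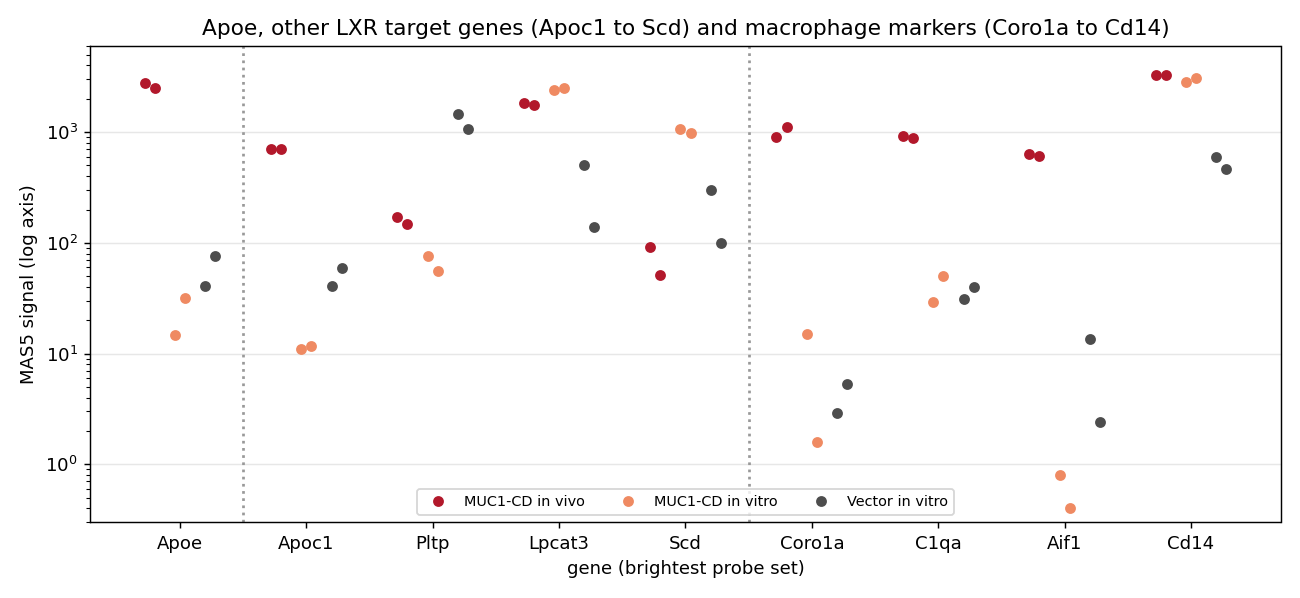
MAS5 signal (log axis) of Apoe, 4 other LXR target genes (Apoc1, Pltp, Lpcat3, Scd) and 4 macrophage markers (Coro1a, C1qa, Aif1, Cd14), with each point 1 array, coloured by group. Apoe, Apoc1, Coro1a, C1qa and Aif1 are high in MUC1-CD in vivo and dim in both cultures, while Pltp, Lpcat3, Scd and Cd14 are arranged otherwise.

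Abca1, the pump that loads lipid-poor apolipoproteins, was higher in MUC1-CD culture than in both other groups by its brightest probe set. Probe set 1383355_at read 782.2 and 703.6 in MUC1-CD in vivo, against 1730.8 and 1734.1 in MUC1-CD in vitro and 759.8 and 1265.7 in Vector in vitro. The MUC1-CD culture arrays lay above all others, and the tumor arrays overlapped those of Vector in vitro. In MUC1-CD in vitro it was higher than in Vector in vitro by 0.81 log2 (SE 0.23, limma adjusted p = 0.0283). It was lower in MUC1-CD in vivo than in MUC1-CD in vitro, with a change of -1.21 (SE 0.23, limma adjusted p = 0.0177). A change of -0.40 in MUC1-CD in vivo against Vector in vitro was not called (limma adjusted p = 0.196, and 0.000104 to 0.805 over the alternatives). It passed without Vector in vitro replicate 1 (-0.76) and after division by the array median (-0.98). Abca1 lost its call against Vector in culture when any 1 of the 4 MUC1-CD arrays was left out (limma adjusted p = 0.0615 to 0.132) and after division by the array median (0.49, limma adjusted p = 0.123), and its call between MUC1-CD in vivo and MUC1-CD in vitro was also lost without any 1 of those arrays (limma adjusted p = 0.118 to 0.141). With only the 2 groups compared in the fit, the call against Vector in culture was lost too (limma adjusted p = 0.059). Without Vector in vitro replicate 2 the change in culture was 1.17 and without replicate 1 it was 0.45, so these arrays set its size.

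Abca1's other probe sets did not all move alike. Probe set 1384381_at read 192.4 and 198.7 in MUC1-CD in vivo, 439.4 and 411 in MUC1-CD in vitro, and 249.2 and 200.9 in Vector in vitro. It was higher in MUC1-CD in vitro than in Vector in vitro by 0.88 (SE 0.18, limma adjusted p = 0.00718), and its change in MUC1-CD in vivo against MUC1-CD in vitro was -1.06 (SE 0.18, limma adjusted p = 0.0104). Both of these directions match those of the brightest probe set. Probe set 1394490_at read 87 and 100 in MUC1-CD in vivo, 128.5 and 163.3 in MUC1-CD in vitro, and 89.3 and 76.8 in Vector in vitro. It was called higher in MUC1-CD in vitro than in Vector in vitro (0.70, limma adjusted p = 0.0442), a call that both other scalings ended. Its lower signal in MUC1-CD in vivo than in MUC1-CD in vitro (-0.56) was not called. The remaining one, 1382431_at, was brightest in tumors, with 260.3 and 335.3 in MUC1-CD in vivo, against 125.9 and 202.6 in MUC1-CD in vitro and 124.2 and 90.9 in Vector in vitro. It was higher in MUC1-CD in vivo than in Vector in vitro by 1.35 (SE 0.28, limma adjusted p = 0.00735), and its difference of 0.82 from MUC1-CD in vitro was not called (limma adjusted p = 0.0989). When the 4 probe sets were averaged, the change in MUC1-CD in vivo against MUC1-CD in vitro was -0.50 and no longer called (limma adjusted p = 0.0684).

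The 4 genes with profiles closest to Abca1 were Asph, which hydroxylates aspartate and asparagine residues, at 0.0899, the ubiquitin ligase Marchf3 at 0.129, the transcript Lnc215 at 0.129, and the docking protein Dok5 at 0.132. Asph read 1738.3 and 1636.6 in MUC1-CD in vivo, against 4570.9 and 4449.5 in MUC1-CD in vitro and 1937.1 and 3169.4 in Vector in vitro. Like Abca1 1383355_at, it was highest in MUC1-CD culture and higher in Vector in vitro replicate 2 than in replicate 1. Asph was chosen for its closeness to these same values, so the likeness is a description. Abca1's other probe sets were lower in Vector in vitro replicate 2 than in replicate 1.

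Abcg1, the pump that feeds mature HDL, was higher in both MUC1-CD groups than in Vector in vitro. Probe set 1368103_at read 1056.6 and 989.3 in MUC1-CD in vivo, 1048.1 and 1001.5 in MUC1-CD in vitro, and 137.2 and 102.1 in Vector in vitro. The means were 1023 ± 47.6 in MUC1-CD in vivo, 1025 ± 33.0 in MUC1-CD in vitro and 119.6 ± 24.8 in Vector in vitro (SD, n = 2 each). All 4 MUC1-CD arrays lay far above both Vector arrays, and the tumor and culture arrays of MUC1-CD cells overlapped. The change against Vector in vitro was 2.95 log2 for MUC1-CD in vitro (SE 0.17, limma adjusted p = 7.04e-05) and 2.95 for MUC1-CD in vivo (SE 0.17, limma adjusted p = 5.24e-05). Between MUC1-CD in vivo and MUC1-CD in vitro the difference was -0.003, with a 95% interval of -0.41 to 0.41. The call in culture held under every alternative run, with changes of 1.58 to 3.14, the smallest when its probe sets were averaged.

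Of the other Abcg1 probe sets, 1373995_at read 81.1 and 79.9 in MUC1-CD in vivo, 52.2 and 70.6 in MUC1-CD in vitro, and 24 and 5.3 in Vector in vitro, and it did not pass the filter. Probe set 1387054_at read 44.1 and 125.5 in MUC1-CD in vivo, 57.3 and 63.6 in MUC1-CD in vitro, and 51.2 and 49 in Vector in vitro. It passed the filter and was called in no comparison, with changes of 0.21, 0.27 and 0.48. Its tumor arrays lay on both sides of the MUC1-CD culture arrays.

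**Figure D3:**
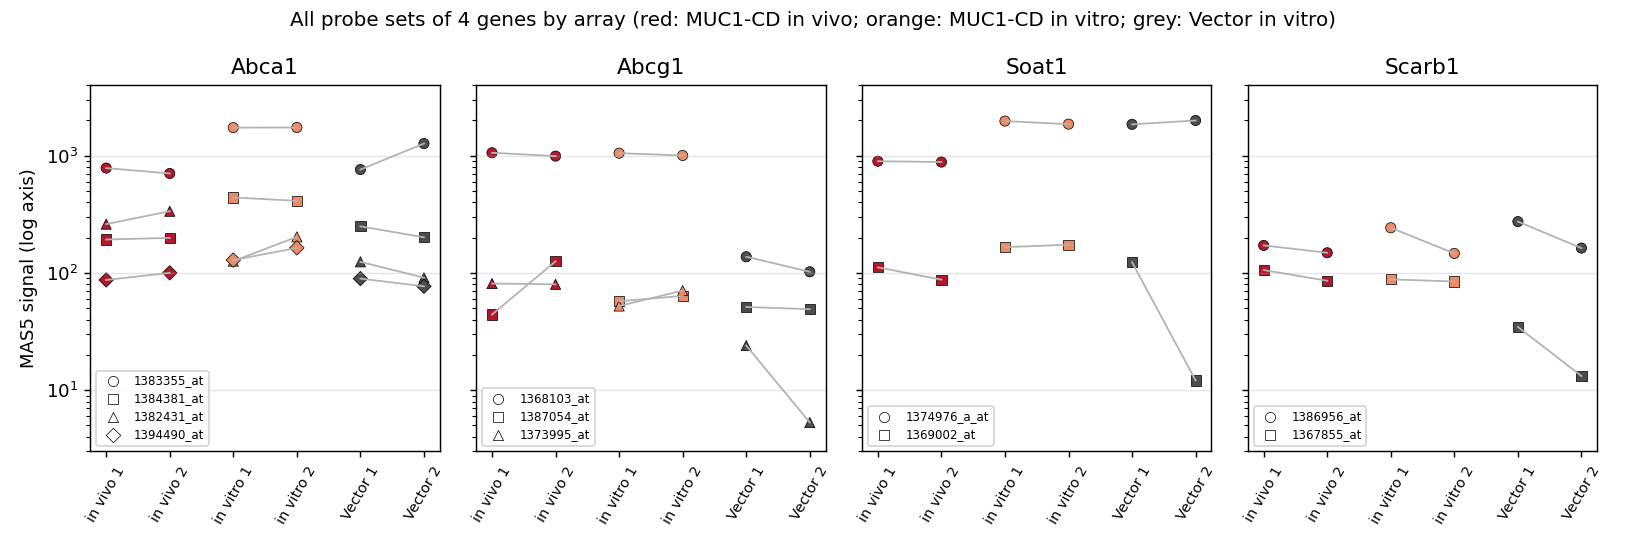
MAS5 signal (log axis) of every probe set of Abca1, Abcg1, Soat1 and Scarb1 by array, with lines joining the 2 arrays of a group. Abca1 1382431_at is highest in MUC1-CD in vivo while the other Abca1 probe sets are highest in MUC1-CD in vitro, and the dimmer Soat1 and Scarb1 probe sets drop on Vector in vitro replicate 2.

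Nr1h2 encodes LXR beta, the LXR that most tissues express. Probe set 1370208_at read 478.4 and 520.1 in MUC1-CD in vivo, 280.2 and 371.4 in MUC1-CD in vitro, and 149.9 and 29.9 in Vector in vitro. The 3 groups did not overlap, and the Vector arrays lay farther apart than the replicates of either other group, at -1.85 log2 for replicate 2 minus replicate 1. Replicate 2 is the array with the high actin ratio, and the part of that in the Nr1h2 values was not tested. Nr1h2 was higher in MUC1-CD in vitro than in Vector in vitro by 1.96 (SE 0.54, limma adjusted p = 0.0248) and in MUC1-CD in vivo than in Vector in vitro by 2.56 (SE 0.54, limma adjusted p = 0.00778). The difference of 0.60 between MUC1-CD in vivo and MUC1-CD in vitro was not called (limma adjusted p = 0.496). It was called when either Vector array was left out, or both, with a limma adjusted p of 0.00753 to 0.0133. Without Vector in vitro replicate 2 the change in culture was 1.03 (limma adjusted p = 0.000779) and without replicate 1 it was 2.88. The call in culture was lost when any 1 of the 4 MUC1-CD arrays was left out (limma adjusted p = 0.0556 to 0.136), and that of MUC1-CD in vivo against Vector in vitro was lost without MUC1-CD in vivo replicate 2 (limma adjusted p = 0.0538). With only the 2 groups compared in the fit, the call in culture was lost too (limma adjusted p = 0.0555). A dim Nr1h2 probe set, 1389854_at, read 18.8 and 16.8 in MUC1-CD in vivo, 6.2 and 15.6 in MUC1-CD in vitro, and 3.1 and 33.8 in Vector in vitro, and was not tested.

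Nr1h3 encodes LXR alpha, the form prominent in liver, fat and macrophages. Its single probe set, 1387365_at, read 19.4 and 11 in MUC1-CD in vivo, 1.3 and 2.5 in MUC1-CD in vitro, and 16.2 and 3.2 in Vector in vitro. These signals lie below the filter, and the tumor and Vector arrays overlapped. With no filter on low signals its difference of 0.79 between MUC1-CD in vivo and MUC1-CD in vitro was not called (limma adjusted p = 0.189).

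Npc2, the soluble lysosomal protein that binds freed cholesterol, was bright on all 6 arrays. Probe set 1398892_at read 10317.7 and 9788.8 in MUC1-CD in vivo, 8713.7 and 8627.9 in MUC1-CD in vitro, and 10351.1 and 12236.4 in Vector in vitro. The MUC1-CD culture arrays were the lowest, and the tumor arrays lay between the groups. Its change in MUC1-CD in vitro relative to Vector in vitro was -0.38 (SE 0.10, limma adjusted p = 0.0200), and it was called in neither other comparison (0.21 in MUC1-CD in vivo against MUC1-CD in vitro, and -0.16 in MUC1-CD in vivo against Vector in vitro). The call was lost with quantile normalization (-0.23, limma adjusted p = 0.0755), without the mean-variance trend (limma adjusted p = 0.0869) and without either MUC1-CD in vitro array (limma adjusted p = 0.103 and 0.117). The difference between MUC1-CD in vivo and MUC1-CD in vitro turned to -0.059 after division by the array median and was called without either or both Vector arrays (limma adjusted p = 0.0103 to 0.0114). Against Vector in vitro the change in MUC1-CD in vivo was called without Vector in vitro replicate 1 (-0.28, limma adjusted p = 0.00348) and after division by the median (-0.76).

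Soat1, which esterifies cholesterol for storage in droplets, was lower in tumors than in both cultures by its brightest probe set. Probe set 1374976_a_at read 894.7 and 880.4 in MUC1-CD in vivo, 1967.2 and 1852.3 in MUC1-CD in vitro, and 1845.7 and 1990.1 in Vector in vitro. Both tumor arrays lay far below the 4 culture arrays, which overlapped each other. The change was -1.09 in MUC1-CD in vivo against MUC1-CD in vitro (SE 0.12, limma adjusted p = 0.00186) and -1.10 against Vector in vitro (SE 0.12, limma adjusted p = 0.000424). Between the cultures it was -0.01, with a 95% interval of -0.28 to 0.27. The other probe set, 1369002_at, read 111.4 and 87.5 in MUC1-CD in vivo, 165.6 and 173.8 in MUC1-CD in vitro, and 123.3 and 12.1 in Vector in vitro. It was called in no comparison, and its Vector arrays lay -2.31 log2 apart, replicate 2 minus replicate 1, with the lower signal again on the array of high actin ratio. With both probe sets averaged, Soat1 was called in neither comparison of tumors (-0.89, limma adjusted p = 0.112, against MUC1-CD in vitro, and -0.11, limma adjusted p = 0.797, against Vector in vitro).

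Scarb1, the HDL receptor gene, had 2 probe sets that differed from each other. Probe set 1386956_at read 171.4 and 148.3 in MUC1-CD in vivo, 242.4 and 146.4 in MUC1-CD in vitro, and 273.5 and 162.6 in Vector in vitro. It was called in no comparison, with changes of -0.15, -0.22 and -0.37. The last of these, in MUC1-CD in vivo against Vector in vitro, was called without Vector in vitro replicate 2 (-0.72, limma adjusted p = 0.0374) and after division by the median (-0.92, limma adjusted p = 0.0404). Probe set 1367855_at read 105.7 and 85.6 in MUC1-CD in vivo, 88 and 84.4 in MUC1-CD in vitro, and 34.6 and 13.2 in Vector in vitro. The Vector arrays were below all 4 MUC1-CD arrays, and replicate 2 was the lower of them. It was higher than in Vector in vitro by 1.41 in MUC1-CD in vitro (SE 0.34, limma adjusted p = 0.0141) and by 1.53 in MUC1-CD in vivo (SE 0.34, limma adjusted p = 0.00892), the second of which was not called with quantile normalization (limma adjusted p = 0.0521). Its mean over all arrays, 68.6, was close to the filter value of 61.6, and both Vector signals lay below that value. A higher signal in the MUC1-CD groups was thus a condition of its test.

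Over all 13 tested probe sets, 6 were higher and 1 lower in MUC1-CD in vitro than in Vector in vitro, where 45.8% of all tested probe sets were called, 25.0% higher and 20.7% lower. For MUC1-CD in vivo against MUC1-CD in vitro, 1 was higher and 3 lower, where 15.8% were called, 8.54% higher and 7.31% lower. For MUC1-CD in vivo against Vector in vitro, 5 were higher and 1 lower, where 51.5% were called, 29.1% higher and 22.4% lower. These counts include Apoe in the comparisons of tumors and Scarb1 1367855_at in those with Vector in vitro. Each passed the filter only through the groups where it was high.

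**Figure D4:**
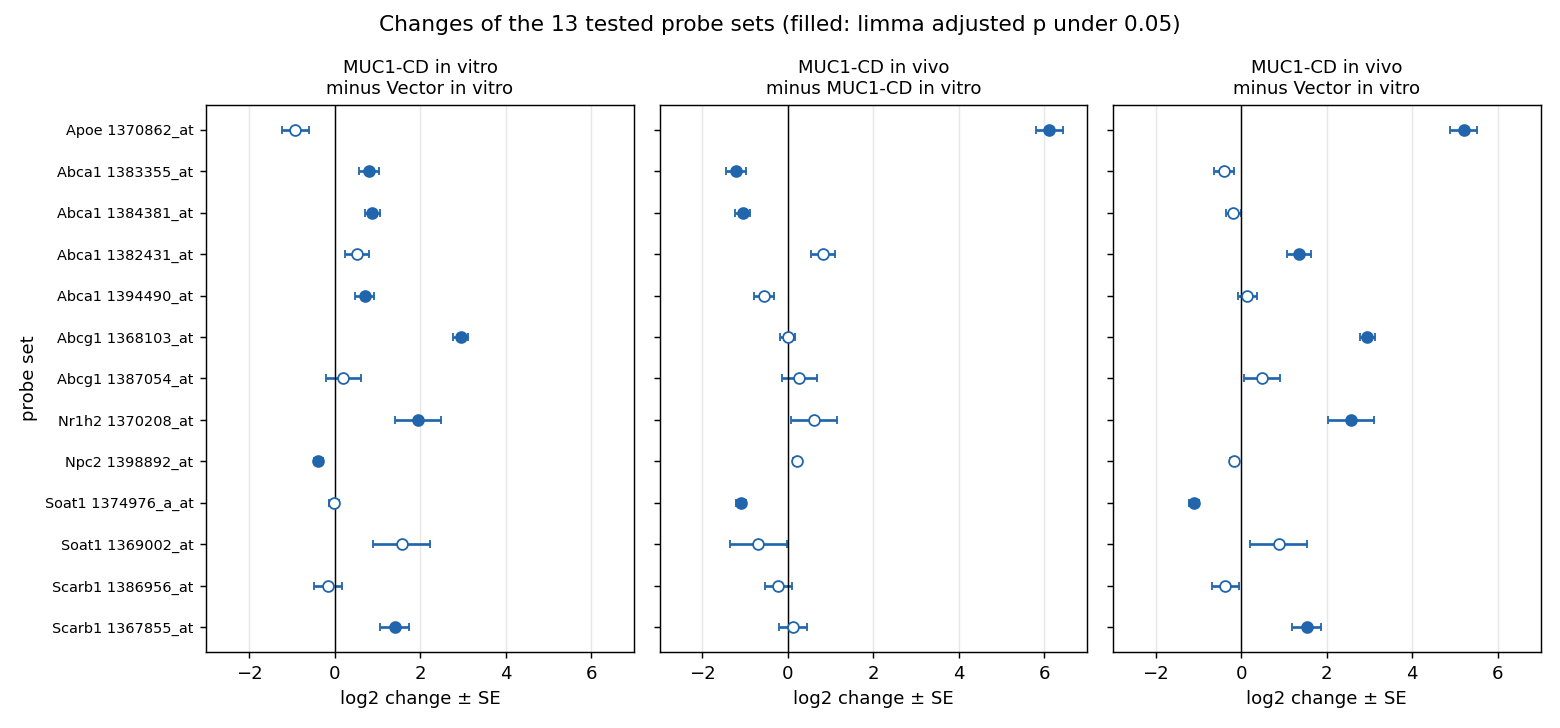
Change in log2(signal + 16) ± SE of the 13 tested probe sets in each comparison, with a filled point where the limma adjusted p is under 0.05. Apoe stands at 6.12 and 5.20 in the comparisons of MUC1-CD in vivo, and Abca1, Abcg1, Soat1 and Scarb1 each have probe sets that differ in call.

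Other genes that LXRs switch on did not move as a block. Of the 6 tested of 11 listed, 3 were higher and 3 lower in MUC1-CD in vitro than in Vector in vitro, 2 higher and 2 lower in MUC1-CD in vivo than in MUC1-CD in vitro, and 2 higher and 2 lower in MUC1-CD in vivo than in Vector in vitro. The medians were 0.22, -0.03 and -0.17. Over all 10037 genes, 21.2% were higher and 24.9% lower in the first comparison. The shares were 9.82% and 8.97% in the second, and 24.8% and 26.6% in the third. Apoc1, an apolipoprotein gene next to Apoe, read 698.1 and 706.5 in MUC1-CD in vivo, against 11 and 11.6 in MUC1-CD in vitro and 41 and 59.4 in Vector in vitro. It was higher in MUC1-CD in vivo than in MUC1-CD in vitro by 4.72 (limma adjusted p = 0.000164), and its change in MUC1-CD in vitro relative to Vector in vitro was -1.26 (limma adjusted p = 0.00567). Its tumor arrays lay far above all culture arrays, as those of Apoe did. Like Apoe it passed the filter through the tumor arrays alone, so its higher tumor signal was a condition of the test, and its 4 culture signals lie below the filter. Pltp, which moves phospholipid onto HDL, read 172.4 and 147.3 in MUC1-CD in vivo, 75.3 and 55.4 in MUC1-CD in vitro, and 1447.7 and 1067.7 in Vector in vitro. Its change in MUC1-CD in vitro relative to Vector in vitro was -3.96 (limma adjusted p = 6.68e-05), and it was higher in MUC1-CD in vivo than in MUC1-CD in vitro by 1.12 (limma adjusted p = 0.0205).

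The other tested LXR targets were Lpcat3, Scd, Srebf1 and Mylip. Lpcat3, which places polyunsaturated chains in phospholipids, read 1820.6 and 1744.9 in MUC1-CD in vivo, 2401.9 and 2510 in MUC1-CD in vitro, and 504.6 and 139.2 in Vector in vitro. It was higher in MUC1-CD in vitro than in Vector in vitro by 3.12 (limma adjusted p = 0.00271). Its change of -0.46 in MUC1-CD in vivo against MUC1-CD in vitro was not called. The lower Vector signal was on the array of high actin ratio, and the part of that in the change was not tested. Scd, a fatty acid desaturase, read 91.5 and 51.7 in MUC1-CD in vivo, 1067.7 and 975 in MUC1-CD in vitro, and 298.5 and 99.4 in Vector in vitro. Scd was higher in MUC1-CD in vitro than in Vector in vitro by 2.44 (limma adjusted p = 0.00584), and its change in MUC1-CD in vivo against MUC1-CD in vitro was -3.60 (limma adjusted p = 0.00411). Srebf1, a transcription factor of lipid synthesis, was higher in MUC1-CD in vitro than in Vector in vitro by 1.34 and changed by -1.20 in MUC1-CD in vivo against MUC1-CD in vitro (limma adjusted p = 0.00471 and 0.0205). Its calls and those of Scd thus ran the same way as those of Abca1. Mylip, the ligase that degrades the LDL receptor, was named after its values were seen as the sixth gene of the list, and its change in MUC1-CD in vitro relative to Vector in vitro was -0.89 (limma adjusted p = 0.00386).

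Of 5 tested LXR dimer partners and coregulators, 2 were lower in MUC1-CD in vitro than in Vector in vitro and none was called between MUC1-CD in vivo and MUC1-CD in vitro. The 2 were the corepressor Nrip1 (-0.89, limma adjusted p = 0.00547) and the coactivator Ncoa1 (-0.94, limma adjusted p = 0.00352). Both were also lower in MUC1-CD in vivo than in Vector in vitro. Rxrb, a retinoid X receptor, was not called in any comparison. Over all genes, 24.9% were lower in MUC1-CD in vitro than in Vector in vitro. Between MUC1-CD in vivo and MUC1-CD in vitro, 18.8% of all genes were called.

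Among lipoproteins and HDL remodelling genes, 5 of 15 listed were tested. In MUC1-CD in vitro relative to Vector in vitro, 1 was higher and 4 lower, and in MUC1-CD in vivo against MUC1-CD in vitro 2 were higher and none lower. The medians were -1.14 and 0.34. In MUC1-CD in vivo against Vector in vitro, 2 were higher and 3 lower, with a median of -0.69. The shares of all genes called in these comparisons were 46.1%, 18.8% and 51.4%. Beside Apoc1 and Pltp, Abca7, a transporter related to Abca1, was higher in MUC1-CD in vitro than in Vector in vitro by 1.35 (limma adjusted p = 0.00750). Abcg4, a relative of Abcg1, changed by -1.14 (limma adjusted p = 0.0129), opposite in sign to Abcg1. All of its MUC1-CD signals lay below the filter and both Vector signals, 121.6 and 134.4, above it. A higher Vector signal was thus a condition of its test.

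Receptors that take up apoE-bearing particles were lower in tumors in 2 cases. Of 7 tested lipoprotein receptors, 2 were higher and none lower in MUC1-CD in vitro than in Vector in vitro, none higher and 2 lower in MUC1-CD in vivo than in MUC1-CD in vitro, and 1 higher and 2 lower in MUC1-CD in vivo than in Vector in vitro. Among all genes, 46.1%, 18.8% and 51.4% were called in these comparisons. Vldlr, the VLDL receptor, read 345 and 413.9 in MUC1-CD in vivo, 1742.7 and 1631 in MUC1-CD in vitro, and 2285.9 and 2126.7 in Vector in vitro. Its change in MUC1-CD in vivo against MUC1-CD in vitro was -2.11 (limma adjusted p = 0.000323). Lrp8, the apoE receptor 2, changed by -1.83 in the same comparison (limma adjusted p = 0.000742) and was higher in MUC1-CD in vitro than in Vector in vitro by 1.11 (limma adjusted p = 0.00158). Lrp2, the large receptor megalin, read 121.4 and 100.1 in MUC1-CD in vivo, 75.4 and 75.6 in MUC1-CD in vitro, and 21.6 and 5.3 in Vector in vitro. It was higher in MUC1-CD in vitro than in Vector in vitro by 1.69 (limma adjusted p = 0.00789). Its mean over the culture arrays lay below the filter, as did both Vector signals. A higher signal in MUC1-CD cells was thus a condition of its test. Its lower Vector signal was on the array of high actin ratio.

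Of 9 tested genes of lysosomal lipid handling, 3 were higher and none lower in MUC1-CD in vitro than in Vector in vitro, and none was higher and 1 lower in MUC1-CD in vivo than in MUC1-CD in vitro. Set against Vector in vitro, MUC1-CD in vivo had 1 higher and 1 lower. The shares of all genes called in these comparisons were 46.1%, 18.8% and 51.4%, with 21.2%, 9.82% and 24.8% higher. Lipa, the lysosomal acid lipase, was higher in MUC1-CD in vitro than in Vector in vitro by 0.60 (limma adjusted p = 0.00888), a call lost after division by the array median. Mcoln1, a lysosomal ion channel, was higher by 0.85 (limma adjusted p = 0.00926). Tmem97, which binds NPC1 in human cells, changed by -0.75 in MUC1-CD in vivo against MUC1-CD in vitro (limma adjusted p = 0.0322).

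Of 11 tested genes of sterol transfer, esters and oxysterols, 2 were higher and 1 lower in MUC1-CD in vitro than in Vector in vitro, and 2 were higher and 2 lower in each comparison of MUC1-CD in vivo. Among all genes, 46.1% were called between the cultures. For MUC1-CD in vivo the share was 18.8% against MUC1-CD in vitro and 51.4% against Vector in vitro. Ch25h, which makes the LXR ligand 25-hydroxycholesterol, read 367.8 and 390.7 in MUC1-CD in vivo, against 44.4 and 20.7 in MUC1-CD in vitro and 27.1 and 41.3 in Vector in vitro. It was higher in MUC1-CD in vivo than in MUC1-CD in vitro by 3.07 (limma adjusted p = 0.00169), and its tumor arrays lay above all culture arrays. It too passed the filter through the tumor arrays alone. The sterol carriers Stard4 and Stard5 changed by -1.58 and -0.87 in the same comparison (limma adjusted p = 0.00539 and 0.0162). Scp2, another carrier, was higher in MUC1-CD in vitro than in Vector in vitro by 1.15 (limma adjusted p = 0.0418), and the call was lost after division by the array median. Its Vector arrays read 1717.7 and 690.1, with the lower signal on the array of high actin ratio.

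The SREBP pathway answers low cholesterol, where LXRs answer high cholesterol. Of its 7 tested control genes, 2 were higher and 1 lower in MUC1-CD in vitro than in Vector in vitro, none higher and 2 lower in MUC1-CD in vivo than in MUC1-CD in vitro, and none higher and 1 lower in MUC1-CD in vivo than in Vector in vitro. In these comparisons 46.1%, 18.8% and 51.4% of all genes were called. Insig1, which retains SREBPs in the endoplasmic reticulum, read 1657 and 1740.8 in MUC1-CD in vivo, 4594.3 and 4099 in MUC1-CD in vitro, and 1551.3 and 1665.1 in Vector in vitro. It was higher in MUC1-CD in vitro than in Vector in vitro by 1.42 (limma adjusted p = 2e-04), and its change in MUC1-CD in vivo against MUC1-CD in vitro was -1.35 (limma adjusted p = 0.000789). Srebf2, the SREBP of cholesterol synthesis, changed by -1.44 in MUC1-CD in vitro relative to Vector in vitro (limma adjusted p = 0.0152), and its Vector arrays read 2900.5 and 1465.2.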

How the data were processed

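The authors deposited 1 intensity per probe set and array, the linear MAS5 signal, per the submitters' processing notes. No source used here gives the MAS5 version or its present calls. Symbols came from the platform annotation: 20826 of 31099 probe sets named 1 gene, 436 named several and stayed unnamed, 57 were controls, and 9780 others were not listed. Names were updated to GRCr8, where 20760 matched.

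Signals were taken as log2(signal + 16), and the 18625 probe sets with a mean signal at or above the 40th percentile (61.6) were fitted with limma 3.58.1 in R 4.3.3 (lmFit, eBayes with a mean-variance trend, all 6 arrays, group as the only term, 3 residual degrees of freedom). P-values were adjusted by Benjamini-Hochberg. The code was tested on simulated data. Same-numbered replicates did not deviate together (r of -0.04 to -0.02), so no pairing was used.

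The genes and lists were chosen with earlier results of these data known. Named genes are all members, at most 4 genes per list with the smallest p in any comparison, and the 4 profiles closest to Apoe and Abca1. Adgre1, Laptm5, Cd163, Mylip and the neighbours of Apoe were named after their values were seen. Alternatives covered the pseudocount, filter, scaling, choice of probe set, arrays in the fit, trend, replicate block and each array left out.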

Additional observations from a re-analysis of the deposited data

How the results depend on the processing

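Apoe in both comparisons of MUC1-CD in vivo and Abcg1 in both comparisons with Vector in vitro were called in the same direction under each of the 16 alternatives. Apoe in MUC1-CD in vivo against MUC1-CD in vitro ranged from 4.96 to 6.86. Over 7 genes and 3 comparisons, 333 alternative values kept direction and call in 277 cases, lost a call in 23, gained one in 18 and changed sign in 15, none of which was called on either side. Scarb1 had no value under the stricter filter, the 60th percentile, which it did not pass.

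The sign changes were as follows. In MUC1-CD in vitro relative to Vector in vitro, Soat1 was 0.031 with quantile normalization, 0.78 with probe sets averaged, 0.037 without MUC1-CD in vitro replicate 2 and 0.048 without Vector in vitro replicate 2, and it ranged from -0.060 to 0.048 with each array left out. Scarb1 was 0.63 with probe sets averaged, 0.18 without MUC1-CD in vitro replicate 2 and 0.20 without Vector in vitro replicate 1, with a range of -0.499 to 0.20. In MUC1-CD in vivo against MUC1-CD in vitro, Npc2 was -0.059 after division by the array median. Abcg1 was 0.012 with quantile normalization, 0.13 with probe sets averaged, 0.044 without MUC1-CD in vivo replicate 2 and 0.029 without MUC1-CD in vitro replicate 1, with a range of -0.050 to 0.044. Scarb1 was 0.11 without MUC1-CD in vitro replicate 1, with a range of -0.56 to 0.11. For MUC1-CD in vivo against Vector in vitro, averaging probe sets gave 0.58 for Scarb1 and 0.23 for Abca1. The cause was not tested.

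In MUC1-CD in vitro relative to Vector in vitro, the genes called lower were 2, with Apoe added, under a pseudocount of 1, division by the median, averaged probe sets and the replicate block, and 0 without the trend. The genes called higher were 1, Abcg1, with only the 2 groups in the fit. In MUC1-CD in vivo against MUC1-CD in vitro, only the 2 groups in the fit gave 8049 called probe sets and 3 genes higher (Apoe, Nr1h2, Npc2), and averaged probe sets gave 0 lower. For MUC1-CD in vivo against Vector in vitro, genes called lower were 4 after division by the median (Abca1, Npc2, Soat1, Scarb1) and 0 with averaged probe sets.

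With each array left out, called probe sets ranged from 4413 to 11519 in MUC1-CD in vitro relative to Vector in vitro, 607 to 8048 in MUC1-CD in vivo against MUC1-CD in vitro, and 5958 to 12401 in MUC1-CD in vivo against Vector in vitro. Genes called higher ranged over 1 to 3, 1 to 3 and 2 to 3, and lower over 0 to 2, 1 to 2 and 1 to 3. Leaving out a Vector array raised the count of MUC1-CD in vivo against MUC1-CD in vitro, and leaving out a MUC1-CD array lowered it. Abca1 lost its call there without any 1 MUC1-CD array (adjusted p = 0.118 to 0.141).

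The replicate block gave 8130, 2390 and 9208 called probe sets, against 8522, 2952 and 9589, and the numbers do not pair the samples. It added the Apoe call in culture (adjusted p = 0.0380) and changed no other member's call.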

Other observations

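The neighbours of Apoe on its GRCr8 chromosome were examined after their values were seen. Apoc4, which lies beyond Apoc1 on one side of Apoe, read 113.8 and 107.1 in MUC1-CD in vivo, against 5.8 and 14 in MUC1-CD in vitro and 24.6 and 21.3 in Vector in vitro. Apoc2, the next gene beyond it, read 20.1 and 39.2 in MUC1-CD in vivo, against 2.3 and 3.2 in MUC1-CD in vitro and 2.3 and 5.2 in Vector in vitro. On the other side, Tomm40, a mitochondrial import pore gene, read 1001.3 and 719.3 in MUC1-CD in vivo, 827.3 and 908.6 in MUC1-CD in vitro, and 607.4 and 355.3 in Vector in vitro. Nectin2, an adhesion protein gene beyond Tomm40, read 160.4 and 186.4 in MUC1-CD in vivo, against 314.8 and 363.4 in MUC1-CD in vitro and 309 and 352.8 in Vector in vitro. Clptm1, another gene near Apoe, read 977 and 958 in MUC1-CD in vivo, 745 and 805.5 in MUC1-CD in vitro, and 592.9 and 518.5 in Vector in vitro. Bcam, a cell adhesion molecule gene, was dim, with 27.5 and 20.5 in MUC1-CD in vivo, 8.4 and 5.4 in MUC1-CD in vitro, and 10.6 and 15.8 in Vector in vitro. Cblc, beyond Bcam, was dim too, with 5.6 and 5.3 in MUC1-CD in vivo, 3.6 and 11.1 in MUC1-CD in vitro, and 3.6 and 3.8 in Vector in vitro. Apoc4, Apoc2, Clptm1 and Bcam were thus higher on both tumor arrays than on all culture arrays. Of these, Apoc4, Apoc2 and Bcam had mean signals below the filter and were not tested. Tomm40 and Cblc overlapped between tumor and MUC1-CD culture, and Nectin2 was lower on both tumor arrays.

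Pparg, which encodes a nuclear receptor that acts upstream of Nr1h3 in macrophages, read 145.1 and 174.5 in MUC1-CD in vivo, 441.5 and 412.7 in MUC1-CD in vitro, and 131.6 and 90.2 in Vector in vitro. It was higher in MUC1-CD in vitro than in Vector in vitro by 1.82 (limma adjusted p = 0.000986), and its change in MUC1-CD in vivo against MUC1-CD in vitro was -1.34 (limma adjusted p = 0.0105). Abca1 was called in the same directions by its brightest probe set, with fewer log2 units in both, while its probe set 1382431_at was called in neither. Whether Pparg and Abca1 are linked in these cells was not tested.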
